A study of Mus musculus with 24 samples.

Results

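The cerebellum and the forebrain of Lyst knockout mice aged 18 months are compared here within animals, across all genes that pass a filter on low counts and with the glial genes in the foreground. The 6 libraries come from 3 animals, numbered 390-1, 390-2 and 397-1, and were chosen by their labels from the 24 libraries of the series. The sample titles give a mouse number and a replicate number. The descriptions give identifiers such as 390-1, whose second number is not always the replicate number of the title. Each identifier is read here as 1 animal, which the labels do not state outright. On this reading, each animal gave 1 cerebellum and 1 forebrain library, and each region difference is a difference within an animal. Of 23443 genes in the deposited table, 14439 passed the filter in these 6 libraries. Lyst codes for a large protein of the BEACH family that takes part in the size and traffic of lysosomes and related organelles, and its loss causes Chediak-Higashi syndrome in people.

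The study made a mouse line, ΔLYST-B6, to follow the neurological side of that syndrome. It sequenced polyA RNA of frozen brain tissue from knockout and wild-type (WT) mice of 3 and 18 months, with 3 animals per genotype and age. The tissues were the right cerebellar hemisphere and the right forebrain, which the sample labels call cortex. The region difference in the knockout at 18 months is set here beside that in WT at 18 months and that in the knockout at 3 months.

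All animals were on the C57BL/6J background. The knockouts were homozygous for a deletion of Lyst exons 4 to 53, made with CRISPR/Cas9 in zygotes of 129S1/SvImJ females and C57BL/6J males. The line goes back to a single founder that was backcrossed 3 times to C57BL/6J, so an effect of the deletion and of other sequence carried by that line cannot be told apart. The WT animals came from the same heterozygous crosses and were then kept as a separate line in parallel. The 18-month groups were ΔLYST-B6 animals 390-1, 390-2 and 397-1 and WT animals 391-1, 397-3 and 397-4, and the 3-month group was ΔLYST-B6 animals 19351-1, 19351-2 and 19351-3. Values for 3 animals are given below in these orders. The mouse number 397 occurs in both genotypes, which the labels do not explain.

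In the 6 knockout libraries of 18 months, the reads counted on genes totalled between 17950754 and 29613594 per library. Levels are in CPM, the reads of a gene scaled to a common library size and for composition. They are not divided by gene length, so they compare 1 gene between libraries and not different genes. A log2 fold change is cerebellum minus forebrain, so positive values are higher in cerebellum, and a gene is called where its adjusted p from edgeR is at or below 0.05. Of the genes named below, P2ry12, Timp1, Gpr17, Slc7a10, B2m, Pcp2, Atp13a5, Wdfy4, Nbea and E2f1 overlap a protein-coding gene, many others, such as Lyst, Slc1a2, Csf1r, C3 and S1pr3, overlap noncoding or predicted genes, and since the use of strand in counting is not stated, their reads are uncertain. In bulk tissue, fewer cells of a type and less RNA of a gene per cell cannot be told apart.

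Astrocytes, oligodendrocytes and microglia differ between brain regions. The cerebellum holds Bergmann glia, radial astrocytes whose processes run along Purkinje cell dendrites, and forebrain astrocytes keep transcription factors of their origin in the telencephalon. Microglia, the resident macrophages of the brain, carry a set of genes associated with surveillance, such as P2ry12 and Tmem119, and can take on a phagocytic set with Trem2, Tyrobp, Gpnmb and Lpl, often called disease-associated.

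Lyst itself, on mouse chromosome 13, was counted in every library. In the libraries labelled ΔLYST-B6 at 18 months it was at 76.3, 69.1 and 66.7 CPM in cerebellum and 135, 119.7 and 131 CPM in forebrain. The WT libraries of that age held 86.8, 87.5 and 92.8 CPM in cerebellum and 119, 126 and 119 CPM in forebrain. In the forebrain, the values of both genotypes overlapped, and in the cerebellum the 3 libraries labelled ΔLYST-B6 lay below the 3 WT libraries. The counts are per gene and do not separate exons, the deletion could not be checked in them, and why Lyst reads do not fall in forebrain was not tested. By qPCR, the paper found similar Lyst RNA upstream of the deletion in both genotypes in these regions, and none at the last exons in the knockout. It detected no LYST protein in the knockout tissues tested. Genotypes are taken from the labels wherever a direction by genotype is given below. Lyst was lower in cerebellum than in forebrain, by a log2 fold change of −0.85 (SE 0.09) in the knockout at 18 months, −0.44 (SE 0.07) in WT and −0.75 (SE 0.09) in the knockout at 3 months. The difference between the knockout and WT in this value, −0.40 (SE 0.11), was not called (edgeR adjusted p = 0.409).

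The regions differed in most genes of the aged knockout brain. In cerebellum, 4622 of the 14439 genes were higher (32%) and 4402 were lower (30.5%) by edgeR's quasi-likelihood test. A change of at least 2-fold was called for 1506 genes higher in cerebellum (10.4%) and 1850 lower (12.8%). For 9618 genes (66.6%), the 3 cerebellum libraries did not overlap the 3 forebrain libraries, so a lack of overlap given below is the common case. The direction was the same in all 3 animals for 8971 of the 9024 called genes, which a call made on these same animals favours. The median log2 fold change over all genes tested was 0.02. With library totals alone as the scale, without a factor for composition, this median moved up by 0.12, and the share of calls that were higher in cerebellum moved from 51.2% to 61.2%. Changes below are relative to the composition-scaled median.

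Neurons that define either region stood out. Granule and Purkinje neurons of the cerebellum supplied several of the 10 genes highest there. Fat2, a protocadherin of granule cells, was at 570.0, 743 and 687 CPM in cerebellum and 3.70, 4.63 and 3.53 CPM in forebrain, a log2 fold change of 7.40 (SE 0.13). Cbln3, a synapse organizer released by granule cells, had 7.36 (SE 0.13), and Gabra6, a GABA receptor subunit of the same cells, had 7.32 (SE 0.12). Pcp2, a Purkinje cell protein, had 7.05 (SE 0.14), and Slc6a5, the glycine transporter of inhibitory hindbrain neurons, had 6.97 (SE 0.25). The other 5 of the 10 were Sycp1, Crtam, Cnpy1, Iltifb and Dao. Sycp1, a protein of meiotic chromosomes, and Crtam, a cell adhesion molecule, had log2 fold changes of 7.48 and 7.45 over forebrain libraries that held under 1 CPM. Cnpy1, a gene known from the midbrain and hindbrain boundary of the embryo, had 7.34. Iltifb (6.81) is a near copy of the interleukin gene Il22, so which of both gave its reads is uncertain. Dao codes for D-amino acid oxidase, an enzyme of Bergmann glia and other cerebellar astrocytes, and is described with them.

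Forebrain tissue was marked by genes of striatal and interneuron lineages. Gpr6, a receptor of striatal neurons, was at 0.113, 0.0404 and 0.0943 CPM in cerebellum and 14.5, 13.8 and 15.9 CPM in forebrain, with −7.37 (SE 0.28). Drd1, the D1 dopamine receptor of striatal neurons, had −6.20 (SE 0.17), and Vip, a peptide of cortical interneurons, had −6.03 (SE 0.32). Dlx6 and Sp9, transcription factors of forebrain inhibitory neurons, had −6.59 and −6.34, and the potassium channel gene Kcnv1 had −6.47. The noncoding genes Dlx1as (−6.39) and Dlx6os1 (−6.31) overlap Dlx1 and Dlx6. Reads of these pairs are uncertain for the same reason. Gm11549, a further noncoding gene, had −6.47.

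Markers of region followed the labels in each of the 6 libraries. En2, a transcription factor of the midbrain and hindbrain, was at 132, 135 and 128 CPM in cerebellum and 2.83, 2.41 and 1.88 CPM in forebrain. The regions of En2 did not overlap. All 10 tested granule cell genes and all 10 tested Purkinje cell genes were higher in cerebellum (32% of all genes), with list medians of 5.24 and 3.34. Of the forebrain lists, 8 of 9 excitatory neuron genes, 6 of 7 interneuron genes and 10 of 10 striatal genes were lower in cerebellum (30.5% of all genes), with medians of −4.65, −5.79 and −3.96. Striatal genes were thus counted in the 3 libraries labelled cortex, which the study calls forebrain.

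General astrocyte genes did not move as a group. Of 15 tested members, 9 were higher in cerebellum (32% of all genes) and 5 were lower (30.5%), and their median log2 fold change was 0.41. Slc1a2, the main glutamate transporter of forebrain astrocytes, was at 615, 514 and 468 CPM in cerebellum and 1692, 1747 and 1865 CPM in forebrain. It was the member lowest in cerebellum, with −1.73 (SE 0.11) and an edgeR adjusted p of 1.99e-10. S100b, a calcium-binding protein of astrocytes, was at 483, 552 and 524 CPM in cerebellum and 173, 211 and 173 CPM in forebrain, with 1.50 (SE 0.09). Slc4a4, a bicarbonate cotransporter, had 1.14 (SE 0.08), and Gja1, the gap junction protein connexin 43, had 0.41 (SE 0.08). None of these 4 genes overlapped between regions, as for 66.6% of all genes. Aqp4, the water channel of astrocyte endfeet, had the highest value of the list at 1.54 (SE 0.29), but its counts were low in every library, at 2.04 to 3.47 CPM in cerebellum. The list's summed level was 5869, 5775 and 5179.6 CPM in cerebellum and 6489.8, 6823 and 6964 CPM in forebrain. Slc1a2 had −1.43 in WT and −1.39 in the younger knockout.

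Genes of Bergmann glia were higher in the cerebellum of the aged knockout, all 7 that could be tested (32% of all genes), with a median of 1.43. Gdf10, a growth factor of the TGF-beta family made by Bergmann glia, was at 158, 218 and 160.1 CPM in cerebellum and 8.27, 10.6 and 12 CPM in forebrain. Its log2 fold change was 4.14 (SE 0.12), against 4.03 (SE 0.11) in WT and 3.81 (SE 0.23) in the knockout at 3 months. Dao was at 79.7, 96.4 and 83.9 CPM in cerebellum and 0.958, 0.754 and 0.626 CPM in forebrain, with 6.79 (SE 0.15). Both genes were more than 10 CPM apart between regions in every animal, with no overlap. Septin4, a cytoskeletal protein and the most abundant member, had 0.85 (SE 0.09), and Hopx, a homeodomain protein of radial glia, had 1.43 (SE 0.09). Fabp7, a fatty acid carrier of radial glia, had the smallest difference, 0.43 (SE 0.10), and its regions overlapped. Without the block for the animal, Fabp7 was not called (edgeR adjusted p = 0.215). The WT median of the list was 1.79 and that of the younger knockout 1.93, again with 7 of 7 members called higher (32.2% of all genes in WT and 25.2% in the younger knockout). Of the 2 other members, Etv4 was at 0 in all 6 libraries and Gria4 did not pass the filter.

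Of the genes that tell telencephalic from other astrocytes, Mfge8, Emx2 and Lhx2 were lower in cerebellum and Slc7a10 was higher. Mfge8, a secreted protein that tags membranes for phagocytes, was at 59.1, 55.7 and 55.3 CPM in cerebellum and 214, 147 and 205 CPM in forebrain, with −1.71 (SE 0.10). Emx2 and Lhx2, transcription factors of the developing telencephalon, had −5.54 (SE 0.24) and −5.16 (SE 0.17). Slc7a10, an amino acid exchanger of astrocytes, went the other way, with 0.31 (SE 0.10), and was not called without animal 390-1 (edgeR adjusted p = 0.182) or by DESeq2 (0.0542). Of the 4 members, 3 were lower in cerebellum (30.5% of all genes), and the list median was −3.44. It was −2.97 in WT and −2.70 in the younger knockout.

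Among 4 tested genes of astrocytes outside the telencephalon, 3 were higher in cerebellum (32% of all genes). Agt, the precursor of angiotensin, was at 113, 99.1 and 114 CPM in cerebellum and 31.6, 17.6 and 19.2 CPM in forebrain, with 2.30 (SE 0.14). Sparc, a matrix protein, had 1.28 (SE 0.10). Neither gene overlapped between regions, as for 66.6% of all genes. The GABA transporter gene Slc6a11 was lower in cerebellum instead, at 102, 59.6 and 34.7 CPM against 169, 132 and 127 CPM, with −1.23 (SE 0.27). Its call was lost without animal 390-2 (edgeR adjusted p = 0.154), without the block (0.0916), without a filter (0.0779) and in the fit of all 24 libraries (0.0846). For Agt, the log2 fold change was 1.96 in WT and 1.33 in the younger knockout, and for Sparc 1.46 and 0.92.

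**Figure D1:**
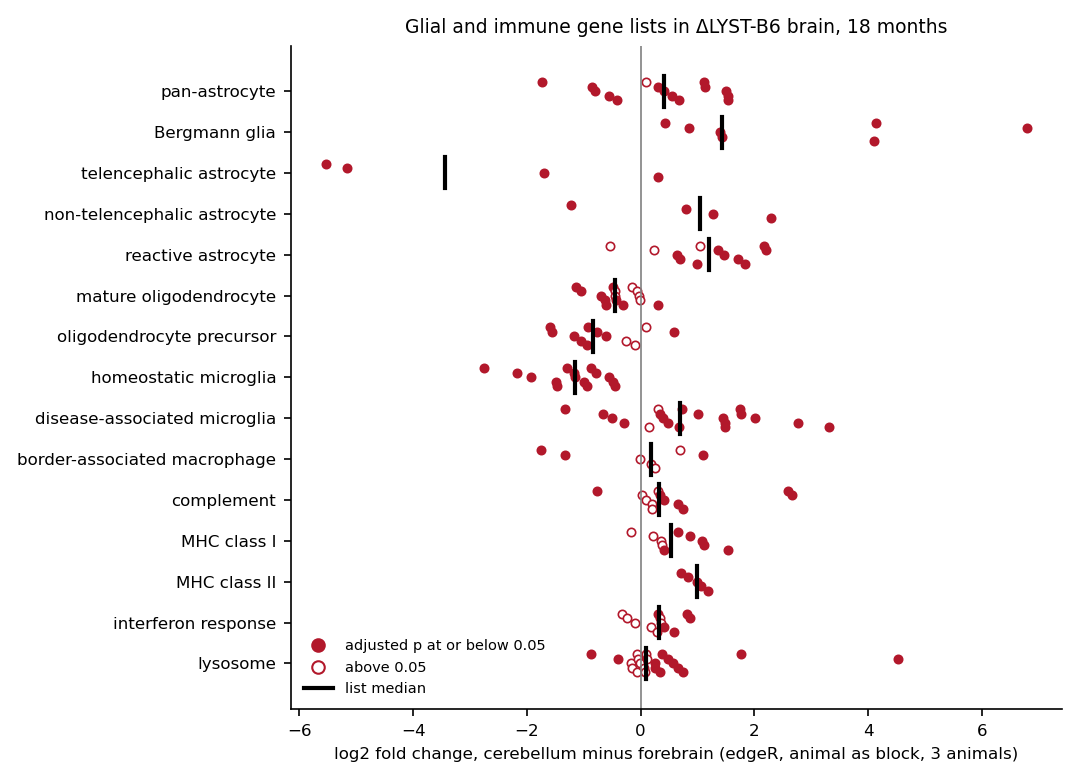
Log2 fold change between cerebellum and forebrain for each tested member of 15 gene lists in ΔLYST-B6 mice of 18 months, from edgeR with the animal as a block (3 animals). Each circle is a gene, filled where its adjusted p is at or below 0.05, and the bar is the list median, from −3.44 for telencephalic astrocytes to 1.43 for Bergmann glia.

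Genes of reactive astrocytes were higher in the aged knockout cerebellum than in its forebrain. Of 12 tested members, 9 were higher in cerebellum (32% of all genes) and the other 3 were not called, and their median log2 fold change was 1.20. Gfap, the intermediate filament that rises when astrocytes react to injury, was at 1149, 924 and 868 CPM in cerebellum and 628, 695 and 513 CPM in forebrain. Every cerebellum library lay above every forebrain library, with a log2 fold change of 0.69 (SE 0.10) (edgeR adjusted p = 1.21e-05). In WT, Gfap was at 366, 438 and 372 CPM in cerebellum and 266, 288 and 323 CPM in forebrain, and in the younger knockout at 197, 295 and 238 and 269, 299 and 354 CPM. Its log2 fold change was 0.43 (SE 0.09) in WT and −0.36 (SE 0.13) in the younger knockout, where it was not called with all animals and was called without 19351-2 (edgeR adjusted p = 0.000277), by DESeq2 (0.0349) and in the fit of all 24 libraries (0.0217).

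Vim, a second intermediate filament, was at 289, 316 and 324 CPM in cerebellum and 61.8, 87.4 and 57.1 CPM in forebrain, with 2.20 (SE 0.11) and no overlap. This regional difference was not limited to the aged knockout, with 2.30 (SE 0.09) in WT and 1.63 (SE 0.12) in the younger knockout. Cd44, a receptor for hyaluronan, had 2.17 (SE 0.18), and Timp1, an inhibitor of matrix proteases, had 1.71 (SE 0.26). Lcn2, a protein that binds iron carriers, was low, at 2.14, 5.33 and 2.58 CPM in cerebellum and 0.435, 1.62 and 0.854 CPM in forebrain, with 1.84 (SE 0.28). Aspg, an asparaginase, was at 14.1, 17.6 and 17.8 CPM in cerebellum and 5.40, 7.25 and 6.66 CPM in forebrain, with 1.37 (SE 0.14) and no overlap.

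Among the reactive astrocyte genes not called with all animals were Serpina3n and S1pr3, and Serpina3n alone had a negative value. Serpina3n, a protease inhibitor of a family with near-identical copies and so uncertain, was at 40.1, 27.6 and 26.2 CPM in cerebellum and 40.9, 68.0 and 32.4 CPM in forebrain, with −0.54 (SE 0.33) and no call with all animals, and a call without animal 397-1 (edgeR adjusted p = 0.0132) and by limma-voom (0.0111). Its values were −1.44 in WT, not called without 391-1 (0.0582), and −1.99 in the younger knockout, not called without 19351-1 (0.111). S1pr3, a receptor for sphingosine 1-phosphate, was at 13.7, 11.7 and 10.6 CPM in cerebellum and 10.1, 12.1 and 8.54 CPM in forebrain, with 0.24 (SE 0.14) and no call except with library totals (edgeR adjusted p = 0.0382). Its WT libraries held 4.16, 3.88 and 3.31 CPM in cerebellum and 8.69, 9.93 and 6.80 CPM in forebrain, with no overlap. The median of the list was 0.85 in WT, where 8 of 11 were called higher (32.2% of all genes) and 2 lower (30.7%), and 0.12 in the younger knockout, where 2 of 10 were called higher (25.2%) and 2 lower (26.1%). Each group was filtered on its own libraries, so these medians cover other sets of members than the 12 tested in the aged knockout. Genes of meninges and fibroblasts had medians of 0.93 in the aged knockout, 1.36 in WT and 0.06 in the younger knockout. Between ages they moved in the direction of the reactive list, with interaction medians of 0.82 and 1.11. Between genotypes they moved the other way, with −0.36 against 0.46. The part of meninges in the reactive astrocyte values was not tested.

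Myelin genes were mostly lower in cerebellum or not called. Of 15 tested genes of mature oligodendrocytes, 8 were lower in cerebellum (30.5% of all genes) and 1 was higher (32%), with a median of −0.45. Mal, a proteolipid of compact myelin, was at 158, 140.2 and 119 CPM in cerebellum and 280.2, 378 and 273 CPM in forebrain, with −1.14 (SE 0.11). Mobp, a further myelin protein, had −0.62 (SE 0.11). The regions of neither overlapped, as for 66.6% of all genes. Mbp, myelin basic protein and the most abundant member, was at 4409, 4007 and 3734 CPM in cerebellum and 4416, 5026 and 4226 CPM in forebrain, and its regions overlapped, with −0.16 (SE 0.09) and no call. Trf, the iron carrier transferrin, was the member called higher, with 0.30 (SE 0.09), and its call was lost without animal 390-1 (edgeR adjusted p = 0.0957) and without 397-1 (0.0579), and without the block (0.0857). The median of this list was −0.12 in WT, where 2 members were higher (32.2% of all genes) and 5 were lower (30.7%). It was 0.10 in the younger knockout, where 1 was higher (25.2%) and 2 were lower (26.1%).

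Oligodendrocyte precursors, the dividing cells that renew the lineage, were marked by lower values in cerebellum too. Of 12 tested members, 8 were lower in cerebellum (30.5% of all genes) and 1 was higher (32%), with a median of −0.84. Pdgfra, the growth factor receptor that defines these cells, was at 23.4, 17.2 and 13.6 CPM in cerebellum and 61.1, 46.2 and 55.5 CPM in forebrain. It had −1.60 (SE 0.12) with no overlap, −1.42 (SE 0.10) in WT and −1.54 (SE 0.19) in the younger knockout. Gpr17, a receptor of cells about to make myelin, had −1.56 (SE 0.13), and Olig1, a transcription factor of the lineage, had −0.94 (SE 0.10). Bmp4, a signalling protein, was the member called higher, with 0.59 (SE 0.23), and its call was lost without animal 390-2 (edgeR adjusted p = 0.105) and without 397-1 (0.245), and by DESeq2 (0.145). The list medians were −0.72 in WT and −0.64 in the younger knockout.

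Homeostatic microglial genes were lower in the cerebellum of the aged knockout, all 15 of them, against 30.5% of all genes. Their median log2 fold change was −1.16. P2ry12, a purine receptor of resting microglial processes, was at 13.3, 8.52 and 10.4 CPM in cerebellum and 45.5, 50.5 and 48.7 CPM in forebrain. Tmem119, a membrane protein that marks microglia, was at 14.4, 14.2 and 8.58 CPM in cerebellum and 38.1, 33.9 and 31.9 CPM in forebrain. In both genes, the highest cerebellum library lay below the lowest forebrain library. Their log2 fold changes were −2.17 (SE 0.13) (edgeR adjusted p = 4.12e-09) and −1.50 (SE 0.12) (1.41e-08).

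Csf1r, the receptor that keeps microglia alive, was at 55.6, 56.4 and 42.7 CPM in cerebellum and 104, 98.7 and 95.9 CPM in forebrain, with −0.95 (SE 0.09), and Cx3cr1, the receptor for the neuronal chemokine fractalkine, had −0.78 (SE 0.09). Slc2a5, a fructose transporter, had the lowest value of the list, −2.75 (SE 0.28), at 1.43, 1.09 and 0.472 CPM in cerebellum. Aif1, which codes for the microglial protein Iba1, had the smallest difference, −0.46 (SE 0.13), and its regions came close, at 7.36, 10.2 and 9.72 CPM against 10.4, 14.5 and 12.9 CPM. Its call was lost in the fit of all 24 libraries (edgeR adjusted p = 0.0544). The same genes were lower in cerebellum in WT, 15 of 15 (30.7% of all genes) with a median of −1.28, and in the younger knockout, 14 of 15 (26.1%) with a median of −1.68. P2ry12 had −1.82 in WT and −2.01 in the younger knockout, and Tmem119 had −1.28 and −1.84. For Cx3cr1 the values were −1.23 and −1.68 and for Csf1r −1.10 and −1.63.

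**Figure D2:**
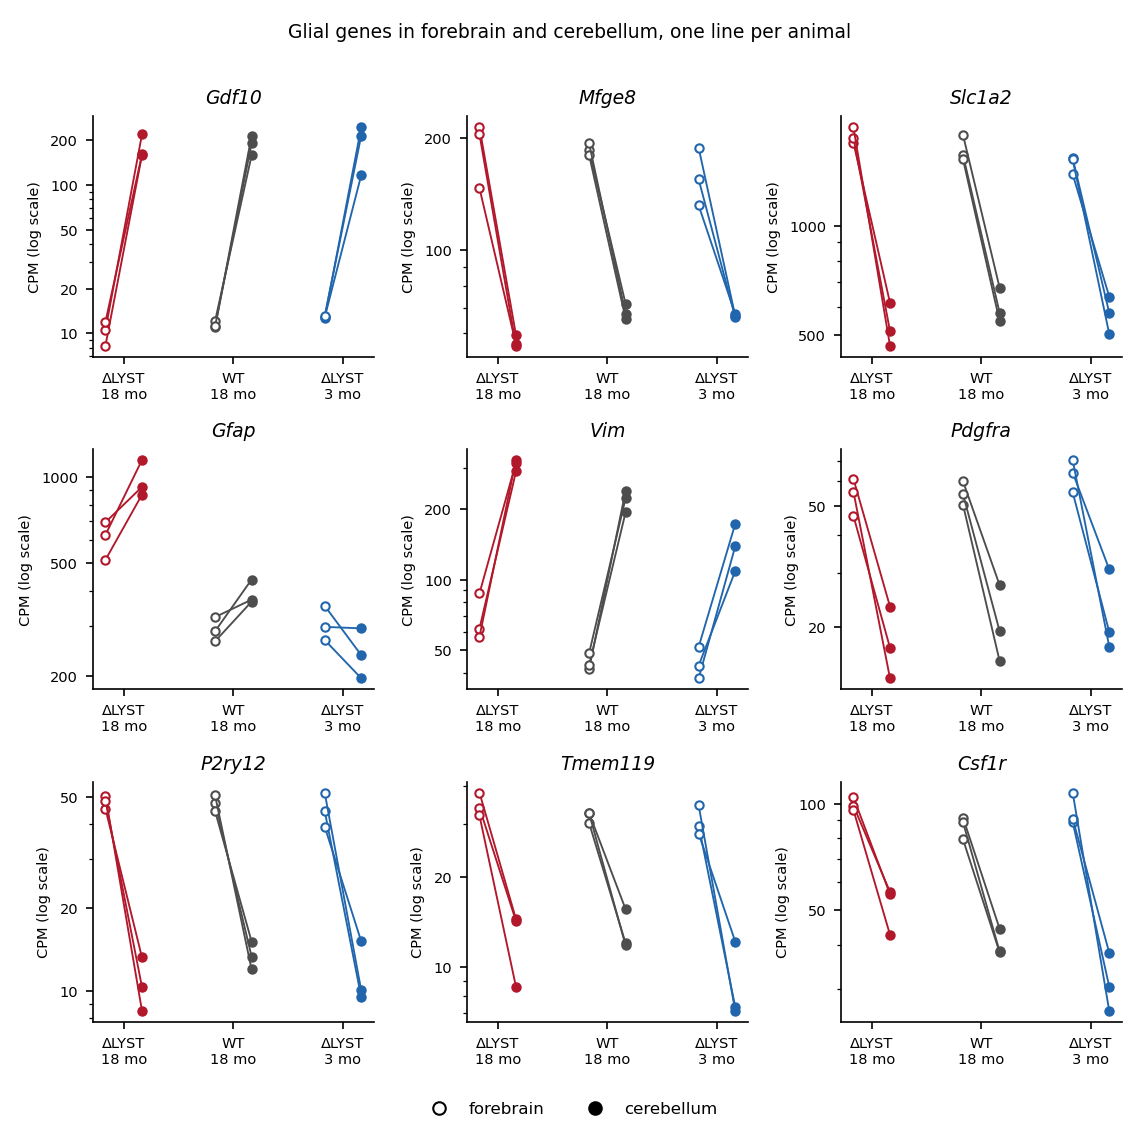
Levels of 9 glial genes in CPM on a log axis, with open circles for forebrain, filled circles for cerebellum and a line for each animal, in ΔLYST-B6 mice of 18 months, WT mice of 18 months and ΔLYST-B6 mice of 3 months (3 animals each). P2ry12 in the aged knockout lies at 13.3, 8.52 and 10.4 CPM in cerebellum and 45.5, 50.5 and 48.7 CPM in forebrain.

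Disease-associated microglial genes ran against this direction in the aged knockout. Of 20 tested members, 14 were higher in cerebellum, against 32% of all genes, and 4 were lower, and the median was 0.70. Gpnmb, a glycoprotein of phagocytes and of cells under lysosomal stress, was at 60.3, 73.2 and 44.4 CPM in cerebellum and 7.71, 7.36 and 3.30 CPM in forebrain. The regions did not overlap, and Gpnmb had the highest log2 fold change of the list, 3.31 (SE 0.13), or 9.89-fold (edgeR adjusted p = 1.65e-12). In WT it was at 4.76, 4.32 and 2.81 CPM in cerebellum and 3.52, 4.26 and 4.63 CPM in forebrain, overlapping, with −0.07 (SE 0.24). In the younger knockout it was at 2.29, 2.21 and 1.97 and 2.18, 3.88 and 3.29 CPM, with −0.51 (SE 0.28).

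Lyz2, the lysozyme of macrophages and a near copy of Lyz1, was at 107, 137 and 89.6 CPM in cerebellum and 32.1, 45.3 and 23 CPM in forebrain, with 1.77 (SE 0.10). Lilrb4a, an inhibitory receptor with a close copy, had 2.76 (SE 0.17). Spp1, the matrix protein osteopontin, had 2.02 (SE 0.10), with 2.00 (SE 0.25) in WT, where the call was lost without 397-4 (edgeR adjusted p = 0.0805), and 1.38 (SE 0.16) in the younger knockout. Itgax, an integrin subunit, had 1.74 (SE 0.17), at 9.76, 13.3 and 10.1 CPM against 2.92, 4.20 and 2.90 CPM. Clec7a, a receptor for fungal glucans, had 1.49 (SE 0.21) in the knockout and 1.45 (SE 0.30) in WT, and Cst7, a protease inhibitor, had 1.48 (SE 0.19) in the knockout. No library of one region overlapped the other for Lyz2, Lilrb4a, Spp1, Itgax, Clec7a or Cst7 in the aged knockout, as for 66.6% of all genes. In WT, edgeR also called Lyz2, Lilrb4a, Spp1, Itgax and Clec7a higher in cerebellum, and not Cst7. With all animals, edgeR called no difference in these values between the knockout and WT for any of these genes. Clec7a, Itgax and Cst7 were too low to be tested in the younger knockout, where no library held 1 CPM of any of them.

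Cd68, a lysosomal protein of phagocytes, was at 24.3, 28.3 and 21.6 CPM in cerebellum and 14.8, 18.5 and 13.8 CPM in forebrain, with 0.67 (SE 0.11) and no overlap. In WT, where it was at 5.64, 7.18 and 7.12 CPM in cerebellum and 9.83, 10.1 and 10.6 CPM in forebrain, the order was the other way, with −0.61 (SE 0.15). Trem2, a lipid receptor of microglia, had 0.39 (SE 0.09) in the knockout and −0.60 (SE 0.11) in WT. Tyrobp, its signalling partner, had 0.33 (SE 0.10) and −0.68 (SE 0.13), and its knockout call was lost without animal 397-1 (edgeR adjusted p = 0.0654), without the block (0.0504) and in the fit of all 24 libraries (0.135). Lpl, lipoprotein lipase, was among the 4 members lower in cerebellum, at 12.5, 11 and 11.7 CPM against 29.8, 31.1 and 27.7 CPM, with −1.32 (SE 0.11). Its WT libraries held 3.45, 3.98 and 3.02 CPM in cerebellum and 26.6, 28.9 and 28.2 CPM in forebrain, so that forebrain levels overlapped between genotypes and every knockout cerebellum library lay above every WT one. In WT, Lpl was 8.01-fold lower in cerebellum, and in the younger knockout it had −3.45 (SE 0.29). Over the list, WT had 7 of 18 members higher (32.2% of all 14303 genes tested there) and 8 lower (30.7%), with a median of −0.01. The younger knockout had 1 of 15 higher (25.2% of all 14127 genes) and 7 lower (26.1%), with a median of −0.51. Each group was filtered on its own libraries, so these medians cover different members. The median of the aged knockout covers 20, some of them too low to be tested in the other groups. Ctsb, the most abundant member and a lysosomal protease, was at 849, 847 and 719 CPM in cerebellum and 738, 754 and 699 CPM in forebrain and was not called. Apoe, Axl and Lgals3 are not in the table, and Cd9 and Ctsd are near 0 in every library, so their levels were not analysed here.

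Macrophages at the borders of the brain showed no common direction. Of 7 tested members of their list, 1 was higher (32% of all genes) and 2 were lower (30.5%) in cerebellum, with a median of 0.18. Cd163, a receptor for haemoglobin, was at 2.22, 2.10 and 0.975 CPM in cerebellum and 5.88, 5.31 and 6.26 CPM in forebrain, with −1.76 (SE 0.26). The list's summed level was 21.7, 26.8 and 17.5 CPM in cerebellum and 26.9, 20.6 and 24.2 CPM in forebrain, and these overlapped.

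Complement genes tag material for phagocytes, and several were higher in the aged knockout cerebellum. Of 12 tested members, 6 were higher (32% of all genes) and 1 was lower (30.5%), with a median of 0.33. C3, the central component of the cascade, was at 45.6, 31.7 and 30.3 CPM in cerebellum and 4.92, 9.30 and 3.25 CPM in forebrain, with 2.66 (SE 0.42) and no overlap. Its call was lost without animal 390-1 (edgeR adjusted p = 0.0566). WT libraries held 3.17, 5.33 and 3.39 CPM of C3 in cerebellum and 1.73, 2.46 and 2.25 CPM in forebrain, with 0.87 (SE 0.23). Serping1, the inhibitor of the C1 protease, had 2.59 (SE 0.13), 2.72 (SE 0.13) in WT and 0.96 (SE 0.20) in the younger knockout, not called there without 19351-1 (edgeR adjusted p = 0.0865). Itgb2, the shared chain of complement receptors and other leukocyte integrins, had 0.75 (SE 0.12).

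C1qa, a chain of the initiating C1q complex, was at 135, 154 and 119 CPM in cerebellum and 99.6, 123 and 88.3 CPM in forebrain, and the regions overlapped although each animal was higher in cerebellum. Its log2 fold change was 0.41 (SE 0.08), and that in WT was −0.46 (SE 0.09). C1qb and C1qc, the other chains, were not called in the aged knockout, with 0.09 (SE 0.09) and 0.19 (SE 0.08), and had −0.80 (SE 0.11) and −0.59 (SE 0.08) in WT. The 3 genes lie side by side on chromosome 4. C4b, a component that shares reads with its near copy C4a, was at 268, 335 and 254 CPM in cerebellum and 211, 306 and 175 CPM in forebrain, with 0.34 (SE 0.09), and its call was lost without animal 397-1 (edgeR adjusted p = 0.0768). The receptor gene C3ar1 had 0.65 (SE 0.21) and the protease gene C1ra −0.77 (SE 0.22), and both calls were lost without that animal as well (0.102 and 0.0587). Without the block for the animal, C4b and C3ar1 were not called (edgeR adjusted p = 0.218 and 0.0625), and with library totals C1qb and C1qc were (0.0401 and 0.00422). The list median was −0.18 in WT and −0.65 in the younger knockout, where 11 members were tested.

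Antigen presentation genes called in the aged knockout were higher in cerebellum. For MHC class I, 6 of 10 tested members were higher in the aged knockout cerebellum (32% of all genes) and 4 were not called, with medians of 0.53 there, 0.68 in WT and −0.14 in the younger knockout. H2-D1, a classical class I chain, was at 293, 363 and 297 CPM in cerebellum and 106, 123 and 104 CPM in forebrain, with 1.53 (SE 0.08) and no overlap. H2-K1 had 0.66 (SE 0.09) and 0.73 (SE 0.08) in WT. H2-Q4 had 1.07 (SE 0.09), and B2m, the light chain of class I, had 0.40 (SE 0.10). The H2 genes share sequence, so the split of reads between them is uncertain. All 5 class II genes were higher in cerebellum (32% of all genes), with a median of 0.98. H2-Aa, a class II chain of antigen-presenting cells, was at 7.14, 11.1 and 8.55 CPM in cerebellum and 4.53, 4.13 and 3.08 CPM in forebrain, with 1.19 (SE 0.19). Cd74, the invariant chain, had 0.83 (SE 0.19), and its call was lost without animal 390-2 (edgeR adjusted p = 0.0570). The class II median was 0.94 in WT and 0.05 in the younger knockout.

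Interferon response genes are switched on by interferons in glia and other cells, and 1 of them, Ifit3, differed by genotype in its region difference. In the interaction test, 1 of 12 members was called lower, against 0.0135% of all genes tested. The list median was −0.83, against 0.00 over all genes, and 12 of 12 values were negative. The interaction call of Ifit3 held in 10 of 15 alternatives and was lost without the block (edgeR adjusted p = 0.715) and in the fit of all 24 libraries (0.980), among others. Choroid plexus genes had a median of −1.10 in this interaction, with 10 of 10 negative, and genes of meninges and fibroblasts −0.36, with 8 of 8 negative. In the knockout, 5 of 12 tested members were higher in cerebellum (32% of all genes were) and 7 were not called, with a median of 0.32. In WT, 10 of 12 were higher (32.2% of all genes) and 2 were not called, with a median of 1.36. Ifit3, an interferon-induced protein with a near copy, Ifit3b, was at 65.5, 63.3 and 43.4 CPM in knockout cerebellum and 41.9, 55.6 and 33.5 CPM in knockout forebrain. WT cerebellum held 61.0, 66.5 and 61.6 CPM and WT forebrain 27.0, 25.0 and 25.8 CPM. The knockout regions overlapped and the WT regions did not, and each knockout forebrain library lay above each WT forebrain library. Its log2 fold change was 0.41 (SE 0.10) in the knockout, 1.29 (SE 0.08) in WT and 0.25 (SE 0.11) in the younger knockout, where it was called without 19351-2 (edgeR adjusted p = 0.0346) and with library totals (0.0282). The call of Ifit3 in the aged knockout was lost without the block for the animal (edgeR adjusted p = 0.153) and in the fit of all 24 libraries (0.316). Irf7, a transcription factor of the response, had 0.34 (SE 0.17) in the knockout, called only with library totals (edgeR adjusted p = 0.0308), and 1.48 (SE 0.19) in WT. Usp18, a protease that damps the response, had 0.30 (SE 0.24) in the knockout and 2.13 (SE 0.27) in WT. The tests of these differences gave −1.14 (SE 0.24) and −1.83 (SE 0.37), neither of them called (edgeR adjusted p = 0.121 and 0.114), and Usp18 was called without a filter (0.0324).

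Lysosomal genes, close to the function of Lyst, had a median of 0.10, against 0.02 for all genes. Of 22 tested members, 10 were higher in cerebellum (32% of all genes were) and 2 were lower (30.5%). Psap, the precursor of the saposins and the most abundant member, was at 2087, 2322 and 1948 CPM in cerebellum and 2189, 2273 and 2105 CPM in forebrain and was not called. Gaa, the enzyme that breaks down glycogen in lysosomes, was at 223, 214 and 167 CPM in cerebellum and 401, 364 and 341 CPM in forebrain, with −0.87 (SE 0.09) and no overlap. Grn, the precursor of granulins, had 0.38 (SE 0.09). Atp6v0d2, a proton pump subunit of macrophages and osteoclasts, was at 1.88, 1.78 and 1.51 CPM in cerebellum and 0.0871, 0.108 and 0 CPM in forebrain, with 4.53 (SE 0.54), a value that rests on few reads in forebrain. The list median was 0.04 in WT and −0.12 in the younger knockout, each over the 20 members that passed the filter there. Among 8 tested genes of the BEACH family, 4 were higher in cerebellum (32% of all genes) and 3 were lower (30.5%). The higher ones were Nbeal1, Wdfy3, Wdr81 and Nsmaf, and Nsmaf was at 0.676, 0.444 and 1.07 CPM in cerebellum and 0, 0.108 and 0 CPM in forebrain, too few reads for a fold change. Nbea, the most abundant of them, codes for neurobeachin, a protein of neuronal membrane traffic, and had −0.52 (SE 0.08), and Wdfy4, which acts in antigen presentation by dendritic cells, had −1.11 (SE 0.24).

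Other cell types moved with region to different degrees. Choroid plexus, the tissue that makes cerebrospinal fluid, varied between libraries, with a summed level of 836, 99.6 and 2532 CPM in knockout cerebellum and 889, 921 and 77.5 CPM in knockout forebrain. Its most abundant gene, Ttr, which codes for transthyretin, was at 772, 62.6 and 2420.1 CPM and 819.6, 864 and 55.5 CPM. Of the 10 members in the knockout, edgeR called 0 (32% of all genes were higher and 30.5% lower) and gave 0 an unadjusted p under 0.05. There, DESeq2 called 1 and limma-voom called 2, and the median was 0.25. In WT, edgeR called 7 of 10 higher (32.2% of all genes), with a median of 1.47. By library, animal 397-1 was highest in cerebellum and lowest in forebrain, and the part of this tissue in the glial differences was not tested. Of 5 ependyma genes, 1 was lower in cerebellum (30.5% of all genes), Foxj1, a regulator of motile cilia, with −1.37 (SE 0.10).

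For cells of vessels, 1 of 6 endothelial and 2 of 7 pericyte genes were higher in cerebellum, against 32% of all genes, and the others were not called. Atp13a5, a pericyte marker, had 0.65 (SE 0.11). Of 8 genes of meninges and fibroblasts, 7 were higher in cerebellum (32% of all genes), with a median of 0.93, and their summed level was 190.3, 252 and 171 CPM in cerebellum and 141, 99.9 and 85.9 CPM in forebrain. Slc6a13, a GABA and taurine transporter of meninges, had 1.38 (SE 0.35), and its call was lost without a filter (edgeR adjusted p = 0.0575). The part of meninges in the MHC and matrix genes was not tested. Among T cell genes, 5 passed the filter in the aged knockout, and edgeR called 4 higher (32% of all genes) and 1 lower (30.5%), limma-voom called 5 and DESeq2 2. The higher ones rest on few reads. The lower one was Cd4, the most abundant member, with −5.05. Cd4 was also the 1 member that passed the filter in WT (−5.49) and in the younger knockout (−5.92). The list's summed level in the aged knockout was 4.28, 6.14 and 4.97 CPM in cerebellum and 15.8, 16.7 and 17.9 CPM in forebrain. For both interactions 5 members were tested, and edgeR, DESeq2 and limma-voom called 0, with medians of 0.48 by genotype and 0.23 by age. Most of these members were too low to be tested in WT or at 3 months alone. The part of T cells in the MHC, Itgb2 and disease-associated values was not tested. Immediate early genes, which neurons switch on with activity, were lower in cerebellum in 9 of 11 cases (30.5% of all genes), with a median of −2.62, and Egr1 had −2.93 (SE 0.09).

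The region difference itself differed between the aged knockout and WT for few genes, among them genes of the disease-associated microglial and complement lists. Of 14857 genes tested for this interaction, 12 had a higher value in the knockout (0.0808%) and 2 a lower one (0.0135%). The 12 were Lpl, Gpnmb, Cd68, Trem2, Mpeg1, C1qa, C1qb, C1qc, S1pr3, Tyrobp, Cyth4 and Fcrls, and the 2 were Ifit3 and Mir682. Of the disease-associated list, 5 of 20 were among them, and of the complement list 3 of 12, while the homeostatic, reactive astrocyte and interferon lists had 1 each. The medians of the disease-associated and complement lists were 0.85 and 0.71, against 0.00 over all genes tested. In WT alone, 18 disease-associated genes passed the filter, so the median of that list includes members too low to be tested in WT. For Bergmann glia, general astrocytes, mature oligodendrocytes and precursors, edgeR, DESeq2 and limma-voom called 0 members, and edgeR gave an unadjusted p under 0.05 to 1, 4, 3 and 0 of them, with medians of −0.18, −0.06, −0.26 and −0.06. Over all genes tested, edgeR gave such a p to 984 of 14857. Purkinje cell genes had a median of −0.33, with 10 of 10 negative, of which edgeR, DESeq2 and limma-voom called 0, and edgeR gave 4 an unadjusted p under 0.05. For choroid plexus the median was −1.10 and for meninges and fibroblasts −0.36, also without calls by these tools and with 0 and 1 members at an unadjusted p under 0.05. The homeostatic list, with Fcrls called, had a median of 0.16.

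Gpnmb had the largest such difference of the 14, 3.39 (SE 0.28) (edgeR adjusted p = 0.000976). Lpl had 1.69 (SE 0.16) (0.000357) and Cd68 1.28 (SE 0.16) (0.00358). Gpnmb was higher in cerebellum in the knockout and overlapped between regions in WT, Cd68 was higher in the knockout cerebellum and lower in the WT cerebellum, and Lpl was lower in cerebellum in both and less so in the knockout. Trem2 had 1.00 (SE 0.14) and its partner Tyrobp 1.02 (SE 0.16). C1qa, C1qb and C1qc had 0.88 (SE 0.12), 0.90 (SE 0.14) and 0.79 (SE 0.11).

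Mpeg1, a pore-forming protein of macrophages, was at 81.8, 76.1 and 58.3 CPM in knockout cerebellum and 67.7, 69.3 and 62.2 CPM in knockout forebrain. In WT it was at 22.1, 25.1 and 20.2 CPM and 41.9, 37.9 and 43.7 CPM. The knockout regions overlapped, while the WT cerebellum lay below the WT forebrain, and the interaction was 1.00 (SE 0.14). Cyth4, an exchange factor of blood cells and microglia, had 0.92 (SE 0.15), with −0.22 in the knockout and −1.13 in WT. Fcrls, a receptor of homeostatic microglia, had 1.08 (SE 0.19), with −1.16 in the knockout and −2.23 in WT. S1pr3 had 1.40 (SE 0.21), with 0.24 in the knockout and −1.15 in WT. In the other direction stood Ifit3, with −0.87 (SE 0.13), and Mir682, with −1.27 (SE 0.20), a small RNA gene that overlaps the gene model Gm4149 and is uncertain in a library of polyA RNA.

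Not every gene of these lists passed the interaction test. C3 had 1.81 (SE 0.45) (edgeR adjusted p = 0.534), C4b 0.50 (SE 0.13) (0.351) and Lyz2 1.11 (SE 0.19) (0.0908). DESeq2 called both C3 and Lyz2 in all animals (adjusted p = 0.000519 and 9.37e-05, against the edgeR values before), and edgeR called C3 without knockout 390-2 (0.000672) and Lyz2 without WT 397-3 (0.00283). Gfap had 0.27 (SE 0.14) (0.768) and Aspg 0.76 (SE 0.19) (0.332). Itgb2 had 0.98 (SE 0.19), Lilrb4a 1.41 (SE 0.42), Cst7 0.89 (SE 0.39) and Itgax 0.55 (SE 0.33), none of them called, and Itgb2 was called without a filter (edgeR adjusted p = 0.0338).

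This count of 14 depends on single animals. Without WT 397-4 it was 4, of which 3 were among the 14, and without knockout 390-2 it was 9, of which 7 were. Without knockout 397-1, 10 were called and 5 of them were among the 14. The shared genes numbered 9 of 19 without knockout 390-1, 10 of 18 without WT 391-1 and 13 of 16 without WT 397-3. Gpnmb and Cd68 were called in all 15 alternatives, Lpl in 14, C1qc, Trem2 and Mpeg1 in 12 each, and C1qa in 11. S1pr3, Ifit3 and Mir682 were called in 10 each, Tyrobp and Cyth4 in 7 each, C1qb in 6, and Fcrls, the least often, in 5. Without WT 397-4, the edgeR adjusted p was 0.0850 for C1qa, C1qc, Trem2, Mpeg1, S1pr3 and Ifit3, 0.122 for C1qb, 0.116 for Tyrobp, 0.146 for Cyth4, 0.160 for Mir682 and 0.184 for Fcrls. Gpnmb ranged from 3.09 to 3.65 over them, with an edgeR, DESeq2 or limma adjusted p of at most 0.0393.

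**Figure D3:**
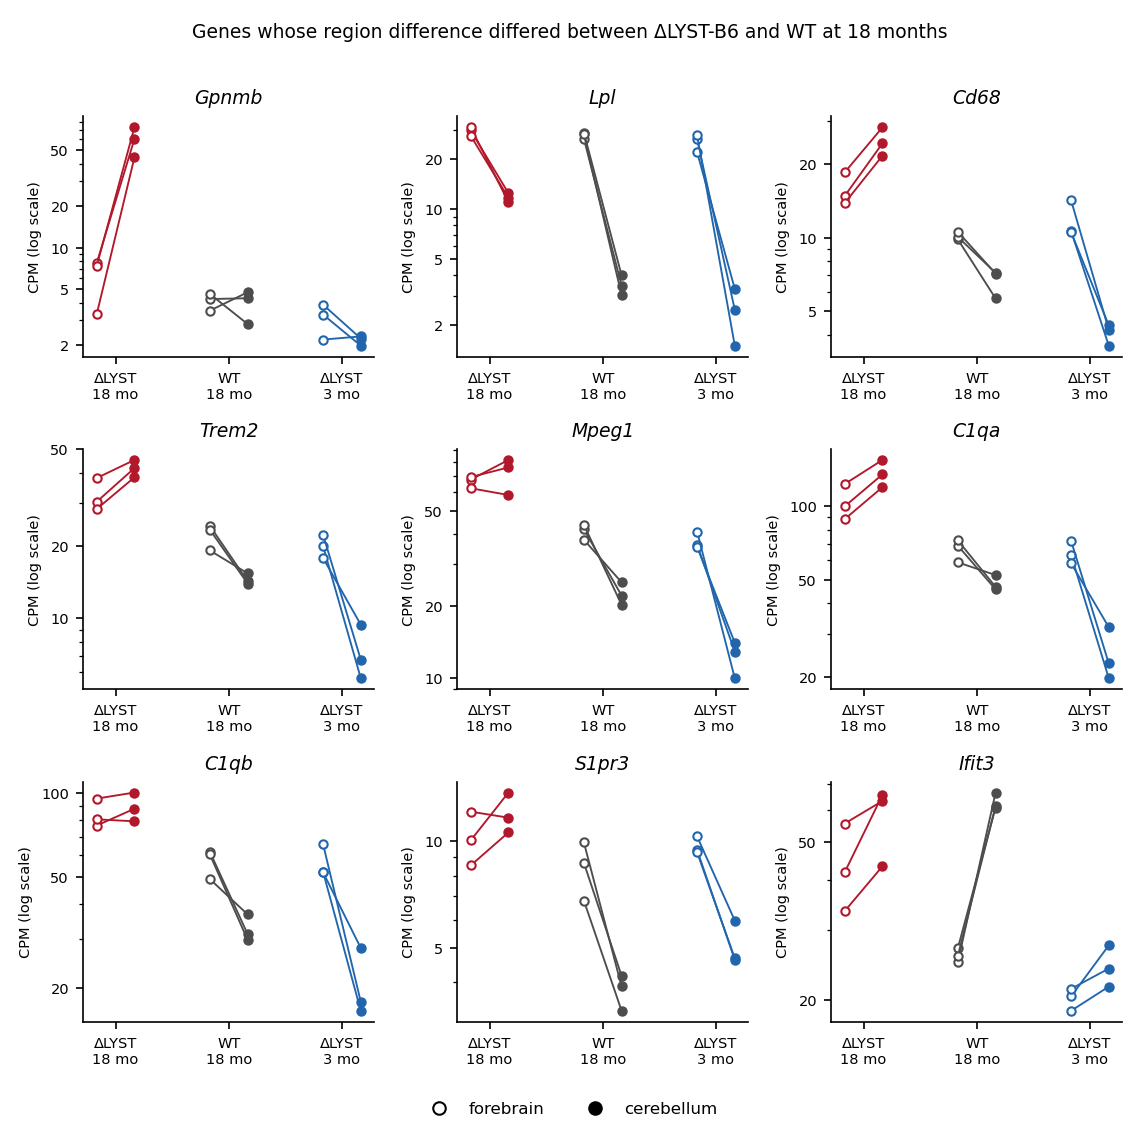
Levels of 9 of the 14 genes whose region difference differed between ΔLYST-B6 and WT at 18 months, in CPM on a log axis, with open circles for forebrain, filled circles for cerebellum and a line for each animal (3 per group). Gpnmb runs from 3.30 to 7.71 CPM in forebrain to 44.4 to 73.2 CPM in cerebellum in the aged knockout and overlaps between regions in WT.

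Between 3 and 18 months, the region difference in the knockout differed for a small share of genes, among them members of the microglial and complement lists. Of 14851 genes tested for this interaction, 47 had a higher value at 18 than at 3 months (0.316%) and 35 a lower one (0.236%). Members of the lists among them were 6 of 21 disease-associated microglial genes, 5 of 12 complement genes, 3 of 12 reactive astrocyte genes and 1 of 10 MHC class I genes. The list medians were 1.06, 1.43, 1.11 and 0.66, against −0.03 over all genes tested. In the younger knockout alone, 15 disease-associated, 11 complement and 10 reactive astrocyte genes passed the filter. The medians of these lists thus include members too low to be tested at 3 months. The meninges and fibroblast list moved in the same direction, with a median of 0.82 and 8 of 8 members positive, of which edgeR called 0, with an unadjusted p under 0.05 for 3, DESeq2 1 and limma-voom 0. Mature oligodendrocyte genes had a median of −0.49 with 15 of 15 negative, of which edgeR called 0, with an unadjusted p under 0.05 for 6, DESeq2 2 and limma-voom 0. Granule cell genes had 0.55 with 10 of 11 positive, and the 3 tools called 0, with 2 at an unadjusted p under 0.05 by edgeR. Homeostatic microglial genes had a median of 0.60, and edgeR called 0 of 15, with an unadjusted p under 0.05 for 8, while DESeq2 called 3 and limma-voom 0. Over all genes tested for this interaction, edgeR gave such a p to 1743 of 14851. The difference between ages was not tested in WT, although the series holds WT libraries of 3 months. Whether these age differences are particular to the knockout was therefore not tested here.

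Gpnmb again had a large difference, 3.81 (SE 0.28) (edgeR adjusted p = 0.000887), followed among these genes by Lyz2 with 2.33 (SE 0.24) (0.00511) and Cd68 with 2.20 (SE 0.18) (0.000978). Lpl had 2.10 (SE 0.29) and Itgb2 2.08 (SE 0.23). Trem2 had 1.87 (SE 0.22), Tyrobp 1.75 (SE 0.22) and Mpeg1 1.73 (SE 0.18). C1qa, C1qb and C1qc had 1.81, 1.57 and 1.71, and Serping1 had 1.62 (SE 0.23). C1qa shows the course, at 19.7, 31.9 and 22.7 CPM in cerebellum and 63.0, 58.3 and 72.1 CPM in forebrain of the younger knockout, against 135, 154 and 119 and 99.6, 123 and 88.3 CPM at 18 months. The younger cerebellum lay below its forebrain, and the older regions overlapped with each animal higher in cerebellum.

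Astrocyte genes with a called age difference were Gfap, with 1.03 (SE 0.18) (edgeR adjusted p = 0.0422), Aspg, with 1.19 (SE 0.22) (0.0481), and S1pr3, with 1.18 (SE 0.21) (0.0467). H2-K1 had 0.67 (SE 0.11) and Cyth4 1.27 (SE 0.23). Outside the glial lists, Met, a receptor for hepatocyte growth factor, had 3.81 (SE 0.38), from 0.243, 0.568 and 0.257 CPM in cerebellum against 9.28, 10.1 and 9.55 CPM in forebrain at 3 months to 3.12, 1.94 and 1.98 and 5.27, 5.06 and 3.76 CPM at 18 months. Ccdc3, a secreted protein, had 1.96 (SE 0.19). Among the lower ones, E2f1, a regulator of the cell cycle, had −1.48 (SE 0.16), at 56.3, 47.4 and 68.2 CPM in the younger and 16.0, 18.5 and 21.4 CPM in the older cerebellum. Rasal1, an inhibitor of Ras, had −1.42 (SE 0.12). Pisd-ps3, a pseudogene whose reads are uncertain, had −1.07 (SE 0.13).

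The count of 82 depends on single animals as well. Without 19351-2 it was 338, which held all 82. That animal's cerebellum library had the lowest summed level of granule cell genes of its group, at 3963 CPM against 6614 and 7270 CPM. Genes of thalamus and hypothalamus summed to 39.9, 95.7 and 66.9 CPM in knockout forebrain at 3 months and 30.0, 12.2 and 14.1 CPM at 18 months. Their values in the age interaction were positive for 7 of 7, with a median of 0.90. Of these, edgeR and limma-voom called 0 and DESeq2 1. The part of tissue sampling in the age differences was not tested. Without 390-2 the count was 7, of which 6 were among the 82. It was 10 without 397-1, 18 without 390-1, 16 without 19351-1 and 29 without 19351-3, of which 9, 12, 14 and 24 were among the 82. Gpnmb, Cd68, Ccdc3 and Rasal1 were called in all 15 alternatives, and Met in the 14 that tested it. Itgb2, Lyz2, Mpeg1 and E2f1 were called in 14, with the call lost without 390-2 (edgeR adjusted p = 0.0733, 0.0623, 0.0733 and 0.0733). Trem2 and C1qa were called in 12, Tyrobp and Lpl in 11 and C1qb in 9, and without 390-2 their edgeR adjusted p was 0.0775, 0.0880, 0.0950, 0.143 and 0.169. C1qc (called in 8), Serping1 (12) and H2-K1 (10) had 0.180, 0.143 and 0.169 there, and Pisd-ps3 (12) had 0.0900 without 397-1. Gfap, Aspg, S1pr3 and Cyth4 were called in 7 of 15, and without 390-2 their edgeR adjusted p was 0.113, 0.180, 0.141 and 0.229.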

How the data were processed

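The authors deposited whole-number read counts per gene. Per the labels and methods, reads of polyA libraries from a NovaSeq instrument were aligned with HISAT2 to mm10, and counts were made with DESeq2. The annotation, the counting mode and the use of strand are not stated.

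Low counts were filtered by filterByExpr of edgeR at its settings of 10 (count) and 15 (total), and genes were scaled with TMM and tested with edgeR's robust quasi-likelihood test, with the animal as a block and Benjamini-Hochberg adjustment over all genes tested. CPM were computed from the deposited counts with the same scaling. Both libraries of an animal carry its identifier in the labels, and across 14439 genes the deviations of the regions correlated at 0.183, 0.0442 and 0.0876 in the 3 knockout animals. Pairs of different knockout animals ran from −0.131 to 0.0372. Matched values were 0.213, 0.112 and 0.00123 in WT, where pairs of different animals reached 0.0802. In the younger knockout they were 0.0116, 0.0723 and 0.0427, where pairs of different animals reached 0.0569. Interactions used 12 libraries, with a region term per group. Tools were R 4.3.3, edgeR 4.0.16, limma 3.58.1, DESeq2 1.42.0 and matplotlib 3.10.9. Gene positions are from RefSeq, GRCm38.p6. The procedure was tested on simulated data.

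The members and lists were chosen with earlier results of these data known. Named by rule were Lyst, the 10 genes highest in each region with at least 10 CPM, the same direction in 3 animals and a call, the 10 smallest adjusted p of each interaction, and per list the most abundant, highest, lowest and interacting members, not all of which are printed. Further list members and the other calls of the smaller interaction were named after their values were seen. Alternatives were no block, DESeq2 size factors, upper-quartile scaling, library totals, DESeq2's Wald test, limma-voom, no filter, a filter of 10 counts per library, 1 fit to all 24 libraries, and leaving out each animal.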

Additional observations from a re-analysis of the deposited data

Results flagged for a closer look

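Differences of the region effect between genotypes or ages were picked out by the interaction tests. Between ΔLYST-B6 and WT at 18 months, 14 genes differed, with log2 differences (knockout minus WT) of 3.39 for Gpnmb, 1.69 for Lpl, 1.40 for S1pr3, 1.28 for Cd68, 1.08 for Fcrls, 1.02 for Tyrobp, 1.00 for Trem2, 1.00 for Mpeg1, 0.92 for Cyth4, 0.90 for C1qb, 0.88 for C1qa, 0.79 for C1qc, −0.87 for Ifit3 and −1.27 for Mir682. Between 18 and 3 months in the knockout, 82 genes differed. Those named had 3.81 (Gpnmb), 3.81 (Met), 2.33 (Lyz2), 2.20 (Cd68), 2.10 (Lpl), 2.08 (Itgb2), 1.96 (Ccdc3), 1.87 (Trem2), 1.81 (C1qa), 1.75 (Tyrobp), 1.73 (Mpeg1), 1.71 (C1qc), 1.62 (Serping1), 1.57 (C1qb), 1.27 (Cyth4), 1.19 (Aspg), 1.18 (S1pr3), 1.03 (Gfap), 0.67 (H2-K1), −1.07 (Pisd-ps3), −1.42 (Rasal1) and −1.48 (E2f1). What lies behind these differences was not tested.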

How the results depend on the processing

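The region counts of the aged knockout and of aged WT stayed within 1.5 times under every alternative, and ran from 7838 to 8554 called genes (higher 3937 to 4371, lower 3851 to 4183) in the knockout and 7336 to 8726 (higher 3549 to 4367, lower 3577 to 4359) in WT when each animal was left out. Without the block for the animal, 8625 genes were called in the aged knockout. In the younger knockout, the count of 7244 ranged from 3625 to 8490 (higher 1833 to 4297, lower 1792 to 4193) when each animal was left out, and was 8981 in the fit of all 24 libraries. Library totals alone moved the share called higher from 51.2% to 61.5% in WT and from 49.1% to 60.5% in the younger knockout.

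The interaction with genotype called 14 genes (12 higher, 2 lower). It called 6 (6 higher, 0 lower) without the replicate block, 28 (22 and 6) with DESeq2's Wald test, 29 (22 and 7) without a filter and 3 (3 and 0) in 1 fit of all 24 libraries, and 4 to 19 (3 to 14 and 0 to 11) with an animal left out. The interaction with age called 82 (47 and 35). It called 42 (26 and 16) with upper-quartile scaling and with library totals, 240 (118 and 122) with DESeq2, 53 (21 lower) with limma-voom, 130 (71 and 59) without a filter, 247 (138 and 109) with all 24 libraries, and 7 to 338 (5 to 181 and 2 to 157) with an animal left out. No replicate block gave 107. DESeq2 and the fit without a filter held all 14 and all 82 genes. The cause of these moves was not tested.

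Of 2494 values of named genes under alternatives, 2306 kept direction and side of the threshold, 169 lost the call, 17 gained one and 2 changed sign without a call. The sign changes were Gpnmb in WT with library totals (0.0434) and without 397-4 (0.20), where leaving out animals gave −0.34 to 0.20. Of 816 list medians under other scalings or without an animal, 795 moved by less than the spread between animals and 21 by more. With 3 animals per group, genes under about 1 CPM rest on few reads, and a missing call is no sign of equal levels.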
